A study of Mus musculus with 152 samples.

Results

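The cell cycle and mitosis genes described here are 38 genes of S phase and mitosis, cyclins and the inhibitor Cdkn1a. They were taken by symbol from 54532 Ensembl genes measured in mouse liver RNA, and all 38 were found. C57BL/6J mice, an inbred strain, were fed from 8 weeks of age with LIDPAD, a diet that induces non-alcoholic fatty liver disease, or with a purified control diet. The diets lasted 1, 4, 8, 12, 16, 32 or 48 weeks, which gave 14 groups of the same strain, tissue and age at the start of feeding. The 152 labelled samples came in blocks of 4 that agree within sampling noise, and each block was counted as 1 library, which left 18 control and 20 LIDPAD libraries. Each diet had 2 libraries in weeks 1, 4, 8 and 12 and 3 in week 16. Week 32 had 4 control and 5 LIDPAD libraries, and week 48 had 3 and 4. Nothing in the labels ties a library to an animal of its own, so the spread behind every p-value is that of libraries and may be technical. The question was in which weeks, and in which steps of the cell cycle, transcripts of dividing cells differed between the diets.

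The cell cycle runs from the G1 decision to divide through DNA replication to mitosis and the separation of the daughter cells. Cyclin D1 carries growth signals into the cycle, E2F factors switch on the replication genes, and a later wave of transcription driven by B-Myb and Foxm1 supplies the mitotic proteins. Most hepatocytes of an adult liver rest outside the cycle and return to it after loss of tissue, whereas infiltrating and resident macrophages, endothelial cells and stellate cells can also divide. In whole liver RNA, more cells of a dividing type and more transcript per cell cannot be told apart.

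Levels are given in FPM, which are reads divided by a size factor and expressed per 1000000. Differences are means of log2(FPM + 0.5), LIDPAD minus control, ± SE, and understate the change of low genes. Genes with an adjusted p under 0.05 in limma, over all genes tested in that week, are said to have risen or fallen. Depth was 10.9 to 53.8 M reads per library (M, 1000000). The median reads per library ran from 7 for Plk1 to 554 for Pcna, and among the mitotic genes was highest for Top2a (105) and Mki67 (228) and at most 55 for the others. Of 1444 values of the 38 genes, 22 were at 0 reads, which allows up to 3 reads, or 0.0565 to 0.311 FPM depending on the library. The 10 hepatocyte markers were measured in every group with none at 0.

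4 libraries stood apart from the rest of their group in the summed level of the 23 mitotic genes, those from mitotic entry to cytokinesis. Control library 3 of week 48 reached 186 FPM, against 10.6 and 11.8 FPM in the other controls. Control library 2 of week 4 reached 113 FPM against 15.0 FPM, and control library 2 of week 32 reached 53.9 FPM against 15.0 to 16.4 FPM. LIDPAD library 2 of week 1 reached 54.1 FPM against 14.5 FPM. Sqle, a sterol synthesis gene, was at 22.8 to 112 FPM over all control libraries and 2.87 to 44.0 FPM over all LIDPAD libraries. The 3 control libraries had it at 74.5, 32.2 and 93.7 FPM, and the LIDPAD library had it at 5.17 FPM. They were picked out after their values were seen and by the genes under study, so the values without them only show how far a call rests on them. LIDPAD library 1 of week 32 stood apart in other ways, with 1661 FPM of erythroid markers against 259 to 304 FPM in the other LIDPAD libraries. Its B and plasma cell markers summed to 188 FPM against 8.41 to 14.2 FPM. Its hepatocyte markers summed to 118190.0 FPM, above every control of that week (89445 to 104180.0 FPM) and the other LIDPAD libraries (35644 to 41999.9 FPM). Most of that sum was Alb, at 92259 FPM. Hnf4a lay at 208 to 253 FPM in the LIDPAD libraries and 427 to 565 FPM in the controls of week 32. Like Hnf4a, the markers Ttr, Serpina1c, Cps1 and Apoh lay below every control in all LIDPAD libraries, LIDPAD library 1 included. The Sqle value of 44.0 FPM was also that of this library, against 2.88 to 20.9 FPM in the other LIDPAD libraries of week 32. Its level of Cfd, which encodes adipsin, was 0.165 FPM against 9.00 to 23.8 FPM. The week 32 controls had Cfd at 0.0907 to 1.18 FPM.

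**Figure D1:**
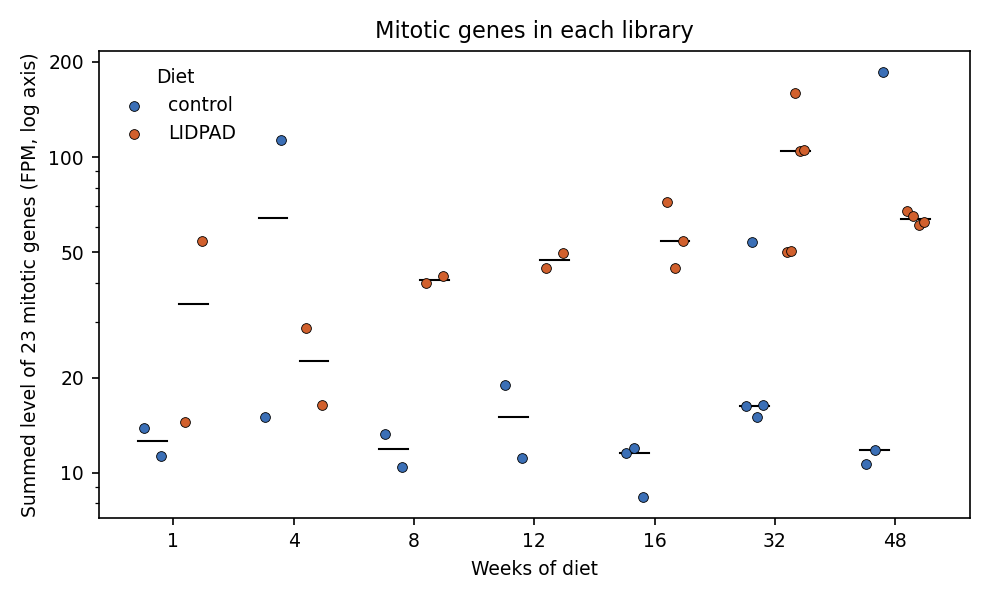
Summed level of the 23 mitotic genes (FPM, log axis) in each library against weeks of diet, with control in blue, LIDPAD in orange and the group median as a line. LIDPAD libraries sit above all controls at weeks 1, 8, 12 and 16, at week 1 narrowly, with the nearest pair at 14.5 and 13.8 FPM. A control library of week 4 and 1 of week 48 lie above every LIDPAD library of their week.

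The promoters are shown first because more of the mitotic than of the replication genes rose in these livers. RefSeq promoters (GRCm38.p6, 250 bases before to 50 after the start) were matched for 30 of the 38 genes. The cell cycle homology region, TTTGAA, is the element through which the DREAM and B-Myb complexes act on mitotic genes, often beside CCAAT boxes bound by NF-Y. On either strand TTTGAA was in 13 of 18 mitotic promoters (72.2%), in 1 of 10 replication promoters (10%) and in 20.2% of the promoters of 27025 genes. The replication gene that held it was Mcm2. CCAAT was in 88.9% of the mitotic, 80% of the replication and 41.1% of all promoters. TTTNGCGC, an E2F-type site, was in 4 of 10 replication promoters (40%), those of Mcm3, Mcm5, Mcm6 and Mcm7, in 1 of 18 mitotic promoters (5.56%, Cdk1) and in 1.57% of all. The 5 mitotic promoters without TTTGAA were those of Ccnb1, Birc5, Bub1, Cenpe and Nusap1, of which Ccnb1, Bub1 and Cenpe rose in the same weeks as Cdk1. A match describes the letters of the window and shows neither binding nor a cause.

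The 150 bases before the start are printed 5′ to 3′ for 4 mitotic genes with TTTGAA, for Mcm6 as a replication gene with E2F-type letters that rose, and for Rrm2 and Tk1 as replication genes that did not rise. Capitals mark the 3 sets of letters named above, on either strand, and positions count back from the start.
Cdk1: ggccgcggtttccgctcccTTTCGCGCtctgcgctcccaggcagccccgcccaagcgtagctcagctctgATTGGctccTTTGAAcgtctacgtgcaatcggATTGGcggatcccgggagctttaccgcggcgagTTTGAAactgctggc
Cdc20: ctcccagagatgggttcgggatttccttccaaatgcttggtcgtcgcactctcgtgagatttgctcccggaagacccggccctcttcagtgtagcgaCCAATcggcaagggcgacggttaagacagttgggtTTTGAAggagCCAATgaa
Ube2c: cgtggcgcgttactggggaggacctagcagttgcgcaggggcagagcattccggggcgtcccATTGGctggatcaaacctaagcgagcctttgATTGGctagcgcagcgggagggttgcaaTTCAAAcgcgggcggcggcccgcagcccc
Kif11: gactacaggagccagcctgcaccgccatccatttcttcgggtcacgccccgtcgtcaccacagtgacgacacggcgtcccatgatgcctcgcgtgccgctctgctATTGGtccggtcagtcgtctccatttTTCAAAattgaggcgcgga
Mcm6: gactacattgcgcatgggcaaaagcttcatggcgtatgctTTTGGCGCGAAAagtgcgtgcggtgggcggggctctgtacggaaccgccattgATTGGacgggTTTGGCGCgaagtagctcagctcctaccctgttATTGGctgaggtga
Rrm2: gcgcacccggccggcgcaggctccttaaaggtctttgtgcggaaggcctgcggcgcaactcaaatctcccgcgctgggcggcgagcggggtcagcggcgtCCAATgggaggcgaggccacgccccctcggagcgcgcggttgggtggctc
Tk1: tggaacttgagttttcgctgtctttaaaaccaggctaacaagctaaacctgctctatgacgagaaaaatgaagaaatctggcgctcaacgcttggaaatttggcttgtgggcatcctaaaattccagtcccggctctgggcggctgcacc
These windows lie at chr10:69352913-69353062, minus strand (Cdk1), chr4:118437344-118437493, minus strand (Cdc20), chr2:164769779-164769928, plus strand (Ube2c) and chr19:37376232-37376381, plus strand (Kif11). The others lie at chr1:128359706-128359855, minus strand (Mcm6), chr12:24708104-24708253, plus strand (Rrm2) and chr11:117826015-117826164, minus strand (Tk1). In Cdk1 TTTGAA begins at -71 and -15, each downstream of a reverse CCAAT box. Cdc20 has it at -18 between CCAAT boxes at -53 and -8, Ube2c has it reversed at -29, and Kif11 reversed at -19 after a reverse CCAAT box at -45. Mcm6 holds TTTNGCGC at -110, -106 and -47, the first 2 overlapping on opposite strands, and reverse CCAAT boxes at -57 and -14. Rrm2 holds a CCAAT box at -50 alone, and the Tk1 window holds none of the 3 sets of letters.

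Calls of the 38 genes began at week 8, covered most of them at week 16, and were absent at week 48 with all libraries. At week 8, 16 of 37 genes tested rose, against 3.16% of all genes tested, and 0 fell, against 1.46%. At week 12, 21 of 38 rose, where 7.32% of all genes rose and 4.89% fell. Week 16 had the highest count, with 30 of 38 higher against 13.6% of all genes and 1, Tk1, lower against 9.23%. At week 32, 16 of 38 rose against 15.6%, a share above the background but smaller than at week 16, and 0 fell against 6.38%. The median difference over the genes tested was 0.78, 0.85, 1.19 and 1.00 at weeks 8, 12, 16 and 32, beside -0.02, 0.01, -0.00 and 0.08 over all genes. At weeks 1, 4 and 48, without a call, it was 0.56, -0.51 and 0.38, beside -0.01, -0.00 and 0.02.

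No gene of the 38 was called at weeks 1, 4 or 48 in limma. In all genes the shares called were 0.575% higher and 0.99% lower at week 1, 0.128% and 0.178% at week 4, and 4.79% and 2.21% at week 48. The count of the 38 genes with an unadjusted p under 0.05 was 8, 3 and 1 in these weeks. DESeq2 called 4 of them at week 1 and none at weeks 4 and 48, and edgeR called none. LIDPAD lay above control in every library for 33 of 37 genes at week 8 (25.4% of all genes), 36 of 38 at week 12 (28.3%) and 34 of 38 at week 16 (21%). It did so for 7 of 38 at week 32 (15.7%) and for 0 at week 48 (12.6%).

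These counts depend on the fit. With 1 spread shared by all 14 groups they were 0, 0 and 11 at weeks 8, 12 and 16, beside 15, 109 and 1660 of all 18652 genes tested. With genes of any level tested they were 8, 11 and 10 at weeks 8, 12 and 32. Of all genes, 347 of 29138, 804 of 29272 and 2607 of 31367 rose in that setting. At week 8 the count was smaller without either LIDPAD library, and at week 12 without control library 2. These fits leave 1 library in that diet. Rescaling every library to a total of 1000000 raised the median difference of all genes by 0.16, 0.17, 0.24 and 0.23 at weeks 12, 16, 32 and 48, and by at most 0.10 before. The numbers of all genes higher and lower went from 564 and 260 to 884 and 169 at week 8, from 1339 and 894 to 1979 and 426 at week 12, and from 2552 and 1734 to 4252 and 866 at week 16. They went from 3042 and 1241 to 4675 and 384 at week 32, from 955 and 440 to 2717 and 190 at week 48, and from 23 and 32 to 21 and 18 at week 4. Of the 84 calls of the 38 genes, 83 were made on the rescaled values too.

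Across weeks, 31 genes rose in at least 1 week, 1 fell and 6 were never called. The 9 that rose at weeks 8, 12, 16 and 32 alike were Mcm6, Cdk1, Ccnb1, Foxm1, Mki67, Top2a, Bub1, Cenpe and Cenpf. Those never called were Ccne1, Mcm7, Pcna, Rrm1, Rrm2 and Aurka. Of these 6, 4 belong to the 11 replication genes. Aurkb was not tested at weeks 1 and 8 because its mean level was under 0.2 FPM.

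**Figure D2:**
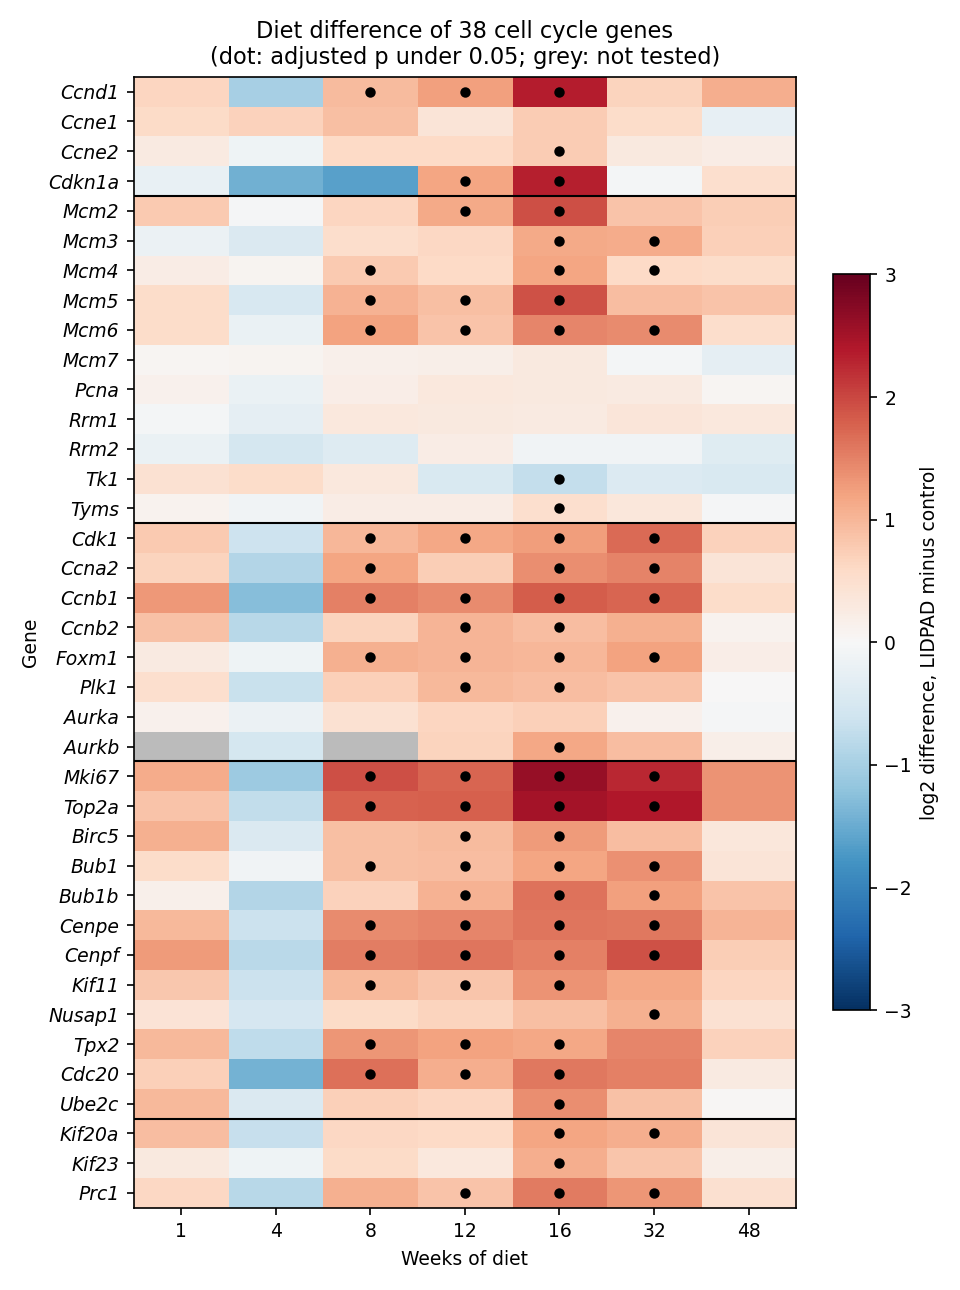
Log2 difference, LIDPAD minus control, of each of the 38 genes (rows, grouped as G1, replication, mitotic entry, chromosomes and spindle, and cytokinesis) at each week of diet (columns), with a dot where the adjusted p was under 0.05 and grey where the gene was not tested. Dots fill most rows at week 16 but not those of Ccne1, Mcm7, Pcna, Rrm1, Rrm2, Aurka and Nusap1, and week 4 is mostly blue without a dot.

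In G1, Ccnd1, which encodes cyclin D1, rose at weeks 8, 12 and 16. At week 8 it was at 9.28 and 6.33 FPM in the control libraries and 17.4 and 13.3 FPM in the LIDPAD libraries. At week 12 the levels were 10.3 and 12.6 FPM in the control libraries and 25.6 and 29.5 FPM in the LIDPAD libraries. Levels at week 16 were 11.1, 7.94 and 10.6 FPM in the control libraries and 63.2, 34.3 and 64.3 FPM in the LIDPAD libraries. No control library reached a LIDPAD library in these weeks, and the differences were 0.94 ± 0.20 (adjusted p = 0.045), 1.24 ± 0.14 (adjusted p = 0.00035) and 2.35 ± 0.21 (adjusted p = 6.2e-06). At week 32 control libraries 2 and 3 were at 48.3 and 21.7 FPM, within the LIDPAD range of 15.0 to 56.7 FPM, and the difference was 0.68 ± 0.43 (adjusted p = 0.295). Without control library 2 it was 1.10 ± 0.37 (adjusted p = 0.067).

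Ccne1 and Ccne2 encode the E cyclins, which drive entry into S phase. Ccne1 was never called although LIDPAD lay above control at weeks 1, 4, 8, 12 and 16. Its level at week 1 was 0.137 and 0.132 FPM in the control libraries and 0.440 and 0.452 FPM in the LIDPAD libraries, and at week 4 it was 0.380 and 0.246 FPM in the control libraries and 0.570 and 1.12 FPM in the LIDPAD libraries. At week 8 the values were 0.164 and 0.140 FPM in the control libraries and 1.04 and 0.454 FPM in the LIDPAD libraries. These control levels are those of a few reads, and the difference at week 8 was 0.90 ± 0.26 (adjusted p = 0.102). The week 12 levels of Ccne1 were 0.556 and 0.559 FPM in the control libraries and 0.714 and 1.08 FPM in the LIDPAD libraries. At week 16 they were 0.890, 0.812 and 0.726 FPM in the control libraries and 1.49, 1.15 and 2.78 FPM in the LIDPAD libraries, with a difference of 0.75 ± 0.26 (adjusted p = 0.056). Ccne2 rose at week 16 alone, by 0.77 ± 0.24 (adjusted p = 0.034), with 1.68 ± 0.361 FPM (SD, n = 3) in control and 3.27 ± 0.962 FPM (SD, n = 3) in LIDPAD livers.

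Cdkn1a encodes p21, an inhibitor of cyclin-dependent kinases and a target of p53, and rose at weeks 12 and 16 together with the cyclins. At week 12 it was at 1.67 and 2.75 FPM in the control libraries and 4.31 and 7.00 FPM in the LIDPAD libraries. At week 16 the values were 0.435, 0.181 and 1.76 FPM in the control libraries and 7.38, 4.27 and 4.50 FPM in the LIDPAD libraries. The diets did not overlap in either week, and the differences were 1.18 ± 0.26 (adjusted p = 0.015) and 2.34 ± 0.37 (adjusted p = 0.00052). At week 8 the order was the other way, with 22.3 and 7.37 FPM in the control libraries and 2.60 and 5.63 FPM in the LIDPAD libraries and a difference of -1.62 ± 0.48 (adjusted p = 0.108). Control levels of Cdkn1a ran from 0.181 FPM at week 16 to 22.3 FPM at week 8, a wider range than that of LIDPAD livers, 1.28 to 11.8 FPM.

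Levels of 2 clock genes are given beside Cdkn1a. The value of log2 Arntl minus log2 Dbp (each + 0.5 FPM), 2 clock genes of opposite phase, was -1.61, -3.27 and -2.22 in the week 16 controls, where Cdkn1a was low. It was 4.75 and 2.99 in the week 8 controls, where Cdkn1a was high. It was 2.90 and 3.90 in the week 1 controls, where Cdkn1a was at 4.83 and 4.16 FPM. In the week 4 controls it was 3.55 and 4.79, with Cdkn1a at 4.79 and 21.1 FPM. The week 12 controls had 0.92 and 1.92, with Cdkn1a at 1.67 and 2.75 FPM. Those of week 32 had 5.20, 5.07, 3.43 and 1.13, with Cdkn1a at 9.79, 15.9, 9.03 and 7.36 FPM. Those of week 48 had 0.78, -1.13 and 1.38, with Cdkn1a at 1.22, 0.661 and 14.1 FPM. In LIDPAD livers the value was -2.06 and 0.28 at week 1, with Cdkn1a at 1.28 and 9.61 FPM. At week 4 it was -0.41 and -0.82, with 2.30 and 5.03 FPM. Week 8 had -1.49 and 1.51, with 2.60 and 5.63 FPM. Week 12 had -1.84 and -1.73, with 4.31 and 7.00 FPM. Week 16 had -2.86, -3.45 and -3.24, with 7.38, 4.27 and 4.50 FPM. Week 32 had 1.52 to 3.54, with 7.93 to 11.8 FPM, and week 48 had -2.39 to -1.80, with 2.81 to 5.69 FPM. Wee1, a kinase that holds back mitosis and is also a clock output, rose at weeks 8, 12, 16, 32 and 48, with 2.39 ± 0.31 (adjusted p = 0.0082) at week 8 and 1.04 ± 0.22 (adjusted p = 0.03) at week 48. Of 16 clock genes 6, 3, 2, 6, 0, 1 and 1 rose at weeks 1, 4, 8, 12, 16, 32 and 48. The shares of all genes that rose were 0.575%, 0.128%, 3.16%, 7.32%, 13.6%, 15.6% and 4.79%. In the same weeks 2, 1, 0, 4, 5, 3 and 4 clock genes fell, beside 0.99%, 0.178%, 1.46%, 4.89%, 9.23%, 6.38% and 2.21% of all genes. Clock genes were thus called also at weeks 1 and 4, where none of the 38 was. The hour of collection is not in the labels, and the part of the clock in these differences was not tested.

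**Figure D3:**
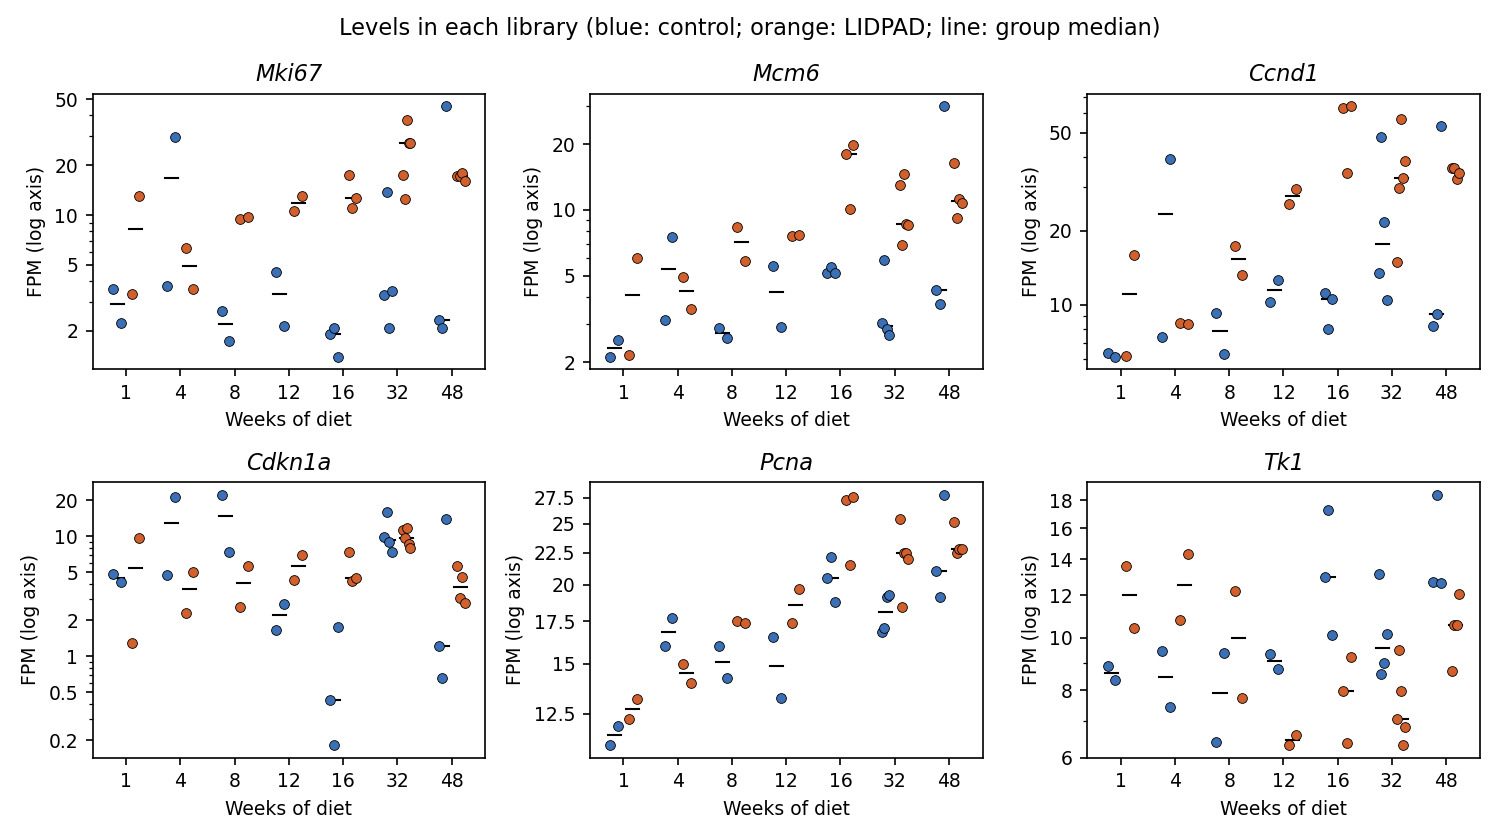
Levels of Mki67, Mcm6, Ccnd1, Cdkn1a, Pcna and Tk1 (FPM, log axes with a range of their own) in each library against weeks of diet, with control in blue, LIDPAD in orange and the group median as a line. Mki67 and Ccnd1 separate the diets at weeks 8, 12 and 16, Pcna stays between 11.1 and 27.8 FPM, and Tk1 is lower in LIDPAD libraries at weeks 12 and 16.

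Of the 11 replication genes, 3 rose at weeks 8, 12 and 32 each and 6 at week 16, beside 3.16%, 7.32%, 15.6% and 13.6% of all genes. At week 32 the share lies closest to this background. The subunits of the MCM helicase supplied all but 1 of these rises. The median difference of the 11 was 0.31, 0.32, 0.50 and 0.37 at weeks 8, 12, 16 and 32, smaller than the 0.99, 0.97, 1.28 and 1.24 of the 23 mitotic genes. Mcm2 to Mcm7 encode the 6 subunits of the helicase that opens DNA at origins, and 5 of them rose in at least 1 week while Mcm7 was not called.

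Mcm2 rose at weeks 12 and 16. At week 1 it was at 0.933 and 1.26 FPM in the control libraries and 1.38 and 3.46 FPM in the LIDPAD libraries, without a call. At week 8 its levels were 2.47 and 1.55 FPM in the control libraries and 3.06 and 3.72 FPM in the LIDPAD libraries, with a difference of 0.65 ± 0.23 (adjusted p = 0.157). At week 12 it was at 2.17 and 2.17 FPM in the control libraries and 4.67 and 6.21 FPM in the LIDPAD libraries. Week 16 gave 2.86, 1.46 and 2.21 FPM in the control libraries and 11.6, 6.99 and 10.3 FPM in the LIDPAD libraries. The week 12 and 16 differences were 1.14 ± 0.20 (adjusted p = 0.0043) and 1.93 ± 0.23 (adjusted p = 6.7e-05), and the lowest LIDPAD library of each week lay above the highest control.

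Mcm5 rose at weeks 8, 12 and 16. It was at 1.42 and 1.20 FPM in the control libraries and 3.41 and 3.07 FPM in the LIDPAD libraries at week 8. At week 12 levels were 2.53 and 1.36 FPM in the control libraries and 3.67 and 4.29 FPM in the LIDPAD libraries. At week 16 they were 1.95, 1.31 and 1.19 FPM in the control libraries and 8.50, 5.57 and 6.76 FPM in the LIDPAD libraries. The differences were 1.05 ± 0.19 (adjusted p = 0.027), 0.91 ± 0.25 (adjusted p = 0.038) and 1.91 ± 0.22 (adjusted p = 3.9e-05), without overlap in these weeks. Mcm6 rose in all 4 of weeks 8, 12, 16 and 32, and at week 32 was at 3.61 ± 1.54 FPM (SD, n = 4) in control and 10.3 ± 3.32 FPM (SD, n = 5) in LIDPAD livers, a difference of 1.41 ± 0.27 (adjusted p = 0.0034). Mcm3 rose at weeks 16 and 32, by 1.15 ± 0.17 (adjusted p = 0.00031) and 1.11 ± 0.19 (adjusted p = 0.0019). Mcm4 rose at weeks 8, 16 and 32, by 0.78 ± 0.17 (adjusted p = 0.046), 1.19 ± 0.19 (adjusted p = 0.00065) and 0.60 ± 0.16 (adjusted p = 0.021).

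Mcm7, Pcna, Rrm1 and Rrm2 passed the test in no week. Pcna encodes the sliding clamp of DNA polymerases, and at week 16 its levels were 20.5, 22.2 and 18.8 FPM in the control libraries and 27.2, 21.5 and 27.6 FPM in the LIDPAD libraries, with LIDPAD library 2 inside the control range and a difference of 0.30 ± 0.12 (adjusted p = 0.102). Mcm7 differed by 0.29 ± 0.18 (adjusted p = 0.272) in the same week. Rrm1 and Rrm2 encode ribonucleotide reductase, which makes deoxynucleotides, and differed by 0.26 ± 0.14 (adjusted p = 0.204) and -0.11 ± 0.20 (adjusted p = 0.747). Tyms, thymidylate synthase, rose at week 16 alone, by 0.50 ± 0.16 (adjusted p = 0.041). Per kb of exon at week 16, the mean control level was 8.54 FPM per kb for Pcna, 2.59 for Tk1, 2.44 for Mcm7 and 1.62 for Rrm2, against 0.372 for Mcm5 and 0.0197 for Ccnb1.

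Tk1, thymidine kinase of the nucleotide salvage pathway, was the 1 gene of the 38 that fell with all libraries, at week 16. It was at 13.0, 17.2 and 10.1 FPM in the control libraries and 7.98, 6.37 and 9.20 FPM in the LIDPAD libraries, so that the highest LIDPAD library lay below the lowest control. The difference was -0.72 ± 0.19 (adjusted p = 0.014). It was lost on rescaling libraries to equal totals (-0.52), without the mean-variance trend, and without control library 2 (-0.53) or LIDPAD library 2 (-0.59), and it kept its sign in each. Exons of Tk1 overlap those of Afmid, which encodes a formamidase, and the strand of counting is not given in the sources used here. Afmid was at 7.92 to 10.7 FPM in control and 5.58 to 7.10 FPM in LIDPAD libraries of week 16, a difference of -0.55 ± 0.16 (adjusted p = 0.024), and reads in the shared exons cannot be told apart.

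Of the 8 genes of mitotic entry, 4 of 7 tested rose at week 8, 5 at week 12, 7 at week 16 and 4 at week 32. Over all genes the shares were 3.16%, 7.32%, 13.6% and 15.6%. Cdk1 encodes the kinase that starts mitosis. At week 8 it was at 0.268 and 0.517 FPM in the control libraries and 1.27 and 1.25 FPM in the LIDPAD libraries. At week 12 it was at 0.504 and 0.438 FPM in the control libraries and 1.48 and 1.89 FPM in the LIDPAD libraries. At week 16 it was at 0.847, 0.643 and 0.326 FPM in the control libraries and 2.15, 2.03 and 2.04 FPM in the LIDPAD libraries. The LIDPAD libraries of week 16 were close together, and the differences were 0.99 ± 0.22 (adjusted p = 0.048), 1.16 ± 0.22 (adjusted p = 0.0071) and 1.25 ± 0.23 (adjusted p = 0.0018). Week 32 gave 0.891, 1.06, 0.399 and 0.495 FPM in the control libraries and 1.68, 2.10, 7.65, 3.42 and 4.14 FPM in the LIDPAD libraries, a difference of 1.70 ± 0.36 (adjusted p = 0.0063). LIDPAD libraries 3, 4 and 5 were high in that week, and all 5 lay above the controls.

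Ccnb1 encodes cyclin B1, the partner of Cdk1. At week 8 the levels were 0.247 and 0.187 FPM in the control libraries and 1.47 and 1.61 FPM in the LIDPAD libraries. Levels at week 12 were 0.404 and 0.0487 FPM in the control libraries and 1.11 and 1.67 FPM in the LIDPAD libraries. Those at week 16 were 0.150, 0.0998 and 0 FPM in the control libraries and 2.27, 1.54 and 0.985 FPM in the LIDPAD libraries. The controls of these weeks held few reads or none, and the differences were 1.51 ± 0.20 (adjusted p = 0.0083), 1.41 ± 0.28 (adjusted p = 0.0087) and 1.81 ± 0.26 (adjusted p = 0.00025). At week 32 Ccnb1 was at 0, 1.75, 0 and 0.317 FPM in the control libraries and 0.615, 1.52, 6.19, 3.05 and 2.41 FPM in the LIDPAD libraries. Control library 2 lay above 2 LIDPAD libraries there, and the difference was 1.74 ± 0.54 (adjusted p = 0.039). At week 1 the levels, uncalled, were 0.182 and 0.208 FPM in the control libraries and 0.543 and 2.31 FPM in the LIDPAD libraries.

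Ccnb2, cyclin B2, rose at weeks 12 and 16. At week 1 it was at 0.206 and 0.207 FPM in the control libraries and 0.211 and 1.89 FPM in the LIDPAD libraries, a difference carried by 1 library. At week 8 it was at 0.329 and 0.377 FPM in the control libraries and 1.06 and 0.693 FPM in the LIDPAD libraries, with a difference of 0.68 ± 0.22 (adjusted p = 0.132). At week 12 values were 0.328 and 0.268 FPM in the control libraries and 1.11 and 1.13 FPM in the LIDPAD libraries. At week 16 values were 0.332, 0.611 and 0.302 FPM in the control libraries and 1.88, 0.992 and 0.902 FPM in the LIDPAD libraries. The diets did not overlap, and the called differences were 1.02 ± 0.22 (adjusted p = 0.011) and 0.92 ± 0.26 (adjusted p = 0.022). Ccna2, cyclin A2, rose at weeks 8, 16 and 32, by 1.19 ± 0.24 (adjusted p = 0.037), 1.40 ± 0.23 (adjusted p = 0.00065) and 1.49 ± 0.39 (adjusted p = 0.017).

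Foxm1, a transcription factor of the mitotic genes, rose at weeks 8, 12, 16 and 32, by 1.07 ± 0.22 (adjusted p = 0.04), 1.01 ± 0.25 (adjusted p = 0.024), 1.01 ± 0.22 (adjusted p = 0.0051) and 1.20 ± 0.31 (adjusted p = 0.017). Plk1, a kinase of mitotic entry and spindle assembly, rose at weeks 12 and 16, by 0.97 and 0.92. Aurkb, the Aurora kinase of the chromosomal passenger complex, rose at week 16 by 1.16 ± 0.25 (adjusted p = 0.0048). Aurka, the Aurora kinase of the spindle poles, was not called in any week and differed by 0.72 ± 0.28 (adjusted p = 0.085) at week 16 and 0.12 ± 0.31 (adjusted p = 0.824) at week 32.

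The 12 genes of chromosomes, spindle and checkpoint held the largest differences, and 8 rose at week 8, 10 at week 12, 11 at week 16 and 7 at week 32. Over all genes 3.16%, 7.32%, 13.6% and 15.6% rose in these weeks. Mki67 encodes Ki-67, a protein of dividing cells that coats mitotic chromosomes. At week 8 it was at 2.63 and 1.73 FPM in the control libraries and 9.52 and 9.76 FPM in the LIDPAD libraries. At week 12 it was at 4.55 and 2.14 FPM in the control libraries and 10.6 and 13.1 FPM in the LIDPAD libraries. At week 16 it was at 1.91, 2.09 and 1.39 FPM in the control libraries and 17.6, 11.0 and 12.8 FPM in the LIDPAD libraries. The lowest LIDPAD library was above the highest control in these weeks, and the differences were 1.94 ± 0.20 (adjusted p = 0.0032), 1.75 ± 0.27 (adjusted p = 0.0018) and 2.62 ± 0.20 (adjusted p = 2.1e-06), which at week 16 was the largest of the 38. Week 32 gave 3.31, 13.7, 2.07 and 3.49 FPM in the control libraries and 17.5, 12.5, 37.3, 27.4 and 27.2 FPM in the LIDPAD libraries. Control library 2 overlapped LIDPAD library 2 there, and the difference was 2.26 ± 0.45 (adjusted p = 0.0043).

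Top2a, topoisomerase II alpha, untangles chromosomes before they separate. It was at 1.21 and 1.22 FPM in the control libraries and 4.97 and 5.69 FPM in the LIDPAD libraries at week 8. At week 12 the levels were 2.55 and 0.875 FPM in the control libraries and 5.61 and 7.76 FPM in the LIDPAD libraries. At week 16 the levels were 1.19, 1.66 and 0.981 FPM in the control libraries and 11.0, 8.27 and 9.12 FPM in the LIDPAD libraries. No library overlapped between the diets, and the differences were 1.76 ± 0.18 (adjusted p = 0.0033), 1.79 ± 0.33 (adjusted p = 0.0051) and 2.49 ± 0.20 (adjusted p = 2.8e-06). At week 32 values were 1.23, 4.80, 0.994 and 2.20 FPM in the control libraries and 7.98, 6.77, 22.1, 17.3 and 14.4 FPM in the LIDPAD libraries, with a difference of 2.40 ± 0.41 (adjusted p = 0.002), and the diets again did not overlap.

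Cenpf and Cenpe encode kinetochore proteins and rose at weeks 8, 12, 16 and 32, Cenpf by 1.55, 1.60, 1.51 and 1.90 and Cenpe by 1.43, 1.46, 1.61 and 1.57. Bub1 and Bub1b, kinases of the spindle checkpoint, differed by 1.19 ± 0.30 (adjusted p = 0.011) and 1.62 ± 0.25 (adjusted p = 0.00042) at week 16, and Bub1b was uncalled at week 8, with 0.69 ± 0.20 (adjusted p = 0.095). Cdc20 and Ube2c serve the ubiquitin ligase that ends mitosis. Cdc20 rose at weeks 8, 12 and 16, by 1.66, 1.10 and 1.57, and Ube2c at week 16 by 1.39 ± 0.26 (adjusted p = 0.0017). Kif11, a motor that separates spindle poles, and Tpx2, a spindle assembly factor, rose at weeks 8, 12 and 16, with 1.35 and 1.16 at week 16. Birc5, survivin, rose at weeks 12 and 16, by 0.94 and 1.28. Nusap1, a microtubule-binding protein, rose at week 32 alone, by 1.07 ± 0.30 (adjusted p = 0.025), and at week 16 differed by 0.91 ± 0.31 (adjusted p = 0.051).

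Of the 3 genes of cytokinesis, 1 rose at week 12, 3 at week 16 and 2 at week 32, and none at the other weeks. The shares of all genes that rose at weeks 12, 16 and 32 were 7.32%, 13.6% and 15.6%. Prc1, which bundles the microtubules of the spindle midzone, rose at weeks 12, 16 and 32, by 0.85 ± 0.24 (adjusted p = 0.044), 1.55 ± 0.28 (adjusted p = 0.0013) and 1.33 ± 0.40 (adjusted p = 0.035). Kif20a, a midzone motor, rose at weeks 16 and 32, by 1.18 ± 0.22 (adjusted p = 0.0019) and 1.08 ± 0.34 (adjusted p = 0.04). Kif23, a motor of the same midzone, rose at week 16 by 1.09 ± 0.31 (adjusted p = 0.021). At week 8 LIDPAD lay above control in every library for all 3 without a call, and for 25.4% of all genes.

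At week 48 the count depended on 1 control library. With all libraries Mki67 was at 2.32, 2.07 and 45.5 FPM in the control libraries and 17.3, 17.1, 17.9 and 15.9 FPM in the LIDPAD libraries, and the difference was 1.34 ± 0.88 (adjusted p = 0.411). The LIDPAD libraries lay close together, control libraries 1 and 2 lay far below them, and control library 3 lay far above. Without control library 3, 29 of 38 genes rose, where 19.1% of all genes rose, and Tk1 fell, where 12% fell. Mki67 then differed by 2.70 ± 0.11 (adjusted p = 2.1e-08), Ccnb1 by 1.72 ± 0.24 (adjusted p = 0.00022), Mcm6 by 1.44 ± 0.19 (adjusted p = 0.00013) and Cdkn1a by 1.64 ± 0.27 (adjusted p = 0.00063). The genes not called were Pcna, Aurka, Ccne1, Ccne2, Tyms, Mcm7, Ccnb2 and Rrm2. Control library 3 was also high in genes outside mitosis, with Ccnd1 at 53.2 FPM against 8.19 and 9.15 FPM, and Cdkn1a at 14.1 FPM against 1.22 and 0.661 FPM.

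**Figure D4:**
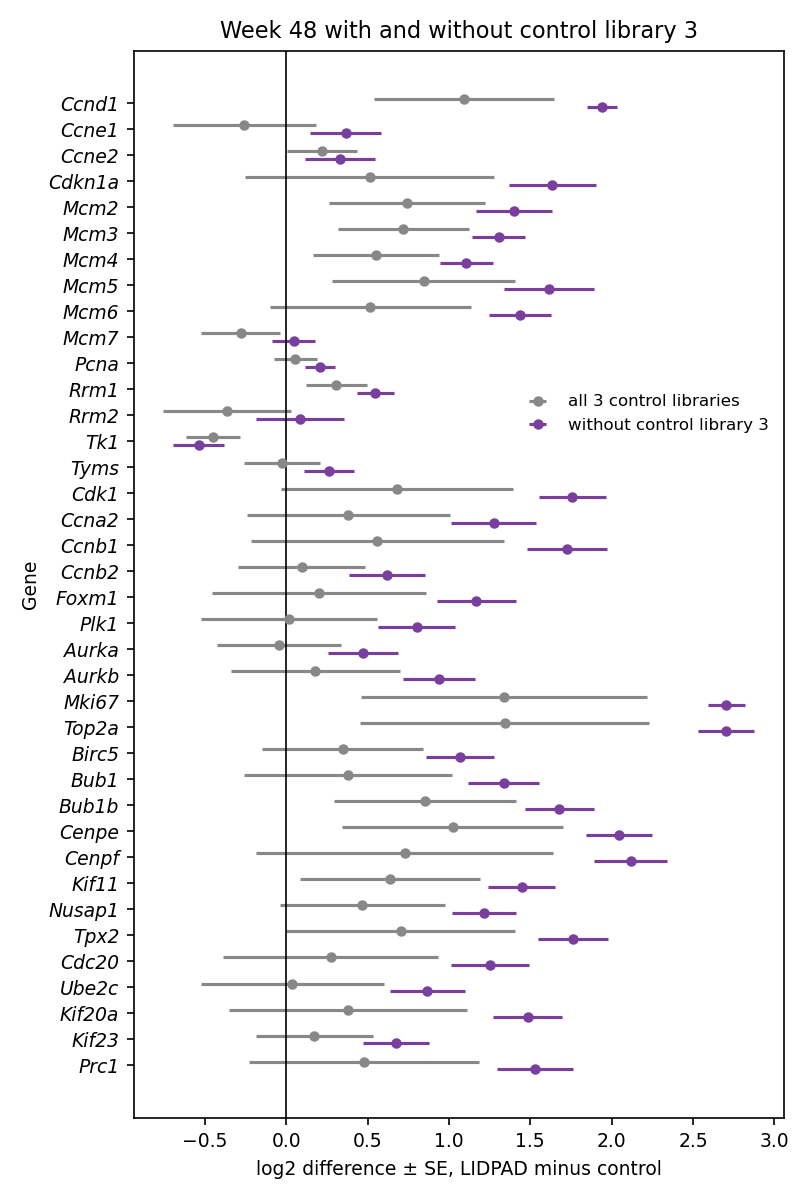
Log2 difference ± SE, LIDPAD minus control, of the 38 genes at week 48 with all 3 control libraries (grey) and without control library 3 (purple). Most genes lie above 0 in both, and without that library most values move up and most errors shrink, while Tk1 lies below 0 in both.

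At week 4 the order of the diets rested on control library 2. Mki67 was at 3.70 and 29.7 FPM in the control libraries and 6.33 and 3.55 FPM in the LIDPAD libraries, and Ccnb1 was at 0.245 and 6.06 FPM in the control libraries and 0.640 and 0.237 FPM in the LIDPAD libraries. All 23 mitotic genes had a difference below 0 with no call. When control library 1 was left out instead, so that library 2 alone stood for the controls, 14 of 38 genes fell, against 1.71% of all genes, among them Ccnd1 with -2.17 ± 0.15 (adjusted p = 0.0044) and Cdkn1a with -2.46 ± 0.38 (adjusted p = 0.027). Without control library 2 no gene of the 38 was called, and the median difference was 0.26. At week 1 LIDPAD library 2 played the same part. Left as the only LIDPAD library it gave 21 of 37 genes higher, against 3.39% of all genes, with Mki67 at 2.02 ± 0.23 (adjusted p = 0.00074). Without it, and so with LIDPAD library 1 alone, the median difference was 0.07. Tk1 then differed by 0.63 and Cdkn1a by -1.49. A fit with a lone library assumes that it varies like the other diet's libraries.

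At week 32 the count moved with single libraries and with the 2 sets into which its libraries fell by how their reads were divided over the 4 columns. Without control library 2, 21 of 38 genes rose, against 12.1% of all genes, and Mki67 differed by 2.78 ± 0.32 (adjusted p = 0.0006). Without LIDPAD library 1, 23 rose, beside 3007 of 19229 of all genes. Without control library 1 or 3 the count was 9, beside 2322 of 19434 and 2316 of 19471. Without control library 4 or LIDPAD library 3, 4 or 5 it was 10, beside 2505 of 19428, 2444 of 19372, 2987 of 19502 and 2883 of 19528. Within the first set, of 3 control and 3 LIDPAD libraries, 3 genes rose, Mcm3, Mcm6 and Top2a, against 13% of all genes. Within the second, 31 rose, against 23.2%, but its 1 control library has no replicate, its spread comes from 2 LIDPAD libraries, and the count shows little about the set. With the set as a term 17 rose, beside 3465 of 19458 of all genes. Mki67 differed by 2.00 in the first set and 2.80 in the second.

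Whether the diet difference itself varied between weeks was tested in a fit of all 14 groups. By an F test of the 6 differences from week 1, 1 of 38 genes varied, Tk1 (adjusted p = 0.023), against 9.11% of all genes. Of these 38, 5 had an unadjusted p under 0.05 in the F test. Taken singly, the 6 differences from week 1 were called for none of the 38. By how reads were divided over the 4 columns, the libraries of weeks 1 to 12 fell in 1 set. Those of later weeks fell in others, so a change from early to late weeks cannot be told apart from a change between sets. The mean difference of weeks 16, 32 and 48 minus that of weeks 1 and 4 was called higher for 2 genes, Mcm3 (1.30 ± 0.29, adjusted p = 0.0032) and Bub1b (1.60 ± 0.41, adjusted p = 0.0094), against 9.49% of all genes. It was called lower for Tk1 (-1.02 ± 0.21, adjusted p = 0.0017), against 4.49%. Tk1 was higher in LIDPAD libraries early, 8.86 and 8.37 FPM in the control libraries and 13.6 and 10.4 FPM in the LIDPAD libraries at week 1 and 9.47 and 7.43 FPM in the control libraries and 10.8 and 14.3 FPM in the LIDPAD libraries at week 4, neither called. Without the 4 libraries standing apart, the F test called 8 of 38 genes, among them Mki67, Top2a, Ccnd1 and Cdkn1a, against 8.86% of all genes. The late minus early difference was then called higher for 18 genes, against 9.05%, with Mki67 at 2.44 ± 0.36, and called lower for Tk1, against 4.07%.

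Other genes of the cycle were called in the same weeks, in shares that differed between lists. Of 43 other mitotic genes, 10 of 39 tested rose at week 8, 12 of 43 at week 12, 32 at week 16 and 19 at week 32, beside 3.16%, 7.32%, 13.6% and 15.6% of all genes, and none rose at weeks 1, 4 and 48. Stmn1, a microtubule-destabilizing protein, rose from 1.07 to 4.24 FPM at week 8, 1.59 ± 0.22 (adjusted p = 0.0091), and from 1.73 to 6.33 FPM at week 16, 1.62 ± 0.18 (adjusted p = 3.8e-05). At week 32 Incenp, of the chromosomal passenger complex, rose by 1.54 ± 0.22 (adjusted p = 0.00063). The 1 gene of the list that fell was Cks2, a subunit of cyclin-dependent kinases, at week 16, with a difference of -0.62 ± 0.15 (adjusted p = 0.0089).

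Of 25 other S-phase genes, 3 of 24 tested rose at week 12, 8 of 25 at week 16 and 5 of 24 at week 32, and none at week 8. Beside 7.32%, 13.6% and 15.6% of all genes, the counts at weeks 12 and 32 are near the background. Uhrf1, which carries DNA methylation through replication, rose from 0.520 to 4.78 FPM at week 16, 2.34 ± 0.23 (adjusted p = 1.5e-05). The origin licensing gene Cdc6 rose by 1.54 ± 0.28 (adjusted p = 0.0013). E2f8, a repressor among the E2F factors, fell at week 12, with a difference of -0.96 ± 0.16 (adjusted p = 0.0026). Mcm10, an initiation factor, fell at week 16, with -0.34 ± 0.12 (adjusted p = 0.048), and at week 32, with -2.29 ± 0.33 (adjusted p = 0.00067). At week 32 it was at 32.6 to 63.4 FPM in control and 3.73 to 13.9 FPM in LIDPAD libraries.

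Of 17 other cyclins, kinases and inhibitors, 2, 2, 5, 7 and 3 of 16 tested rose at weeks 8, 12, 16, 32 and 48, beside 3.16%, 7.32%, 13.6%, 15.6% and 4.79% of all genes. Cdkn2c, the inhibitor p18, rose by 1.06 ± 0.22 (adjusted p = 0.0032) at week 16 and 1.28 ± 0.30 (adjusted p = 0.039) at week 48. Rbl1, the pocket protein p107, rose by 1.33 ± 0.21 (adjusted p = 0.00062) at week 16. Cdk6, a partner of D cyclins, rose at weeks 8, 12, 16 and 32, by 0.70 ± 0.11 (adjusted p = 0.0028) at week 12. Myc, a growth regulator, rose at week 16 by 1.60 ± 0.31 (adjusted p = 0.0022). Cdkn1b, the inhibitor p27, fell at week 16, with a difference of -0.47 ± 0.13 (adjusted p = 0.017), and rose at week 32, by 0.53 ± 0.17 (adjusted p = 0.044). Its week 32 value was added after it was seen, because the direction turned.

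Of 15 p53 target genes, 2 rose at week 8, 5 at week 12, 9 at week 16 and 3 at week 32, beside 3.16%, 7.32%, 13.6% and 15.6% of all genes, and none fell. The count at week 32 is near that background. Eda2r, a death-domain receptor, rose by 1.40 ± 0.19 (adjusted p = 0.0091) at week 8 and 2.01 ± 0.25 (adjusted p = 0.00058) at week 12. Phlda3, an inhibitor of Akt signalling, rose by 2.01 ± 0.24 (adjusted p = 6.7e-05) at week 16. Gdf15, a stress cytokine, rose by 1.58 ± 0.22 (adjusted p = 0.01) at week 8 and 1.28 ± 0.25 (adjusted p = 0.0077) at week 12 and was not called at week 16, with 0.78 ± 0.27 (adjusted p = 0.056).

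Markers of several cell types were called in some of these weeks, and also at week 48, where none of the 38 genes was called with all libraries. Over all genes, 3.16%, 7.32%, 13.6%, 15.6% and 4.79% rose at weeks 8, 12, 16, 32 and 48. The shares that fell were 1.46%, 4.89%, 9.23%, 6.38% and 2.21%. Of 10 markers of recruited macrophages, 8, 9, 10, 10 and 7 rose at weeks 8, 12, 16, 32 and 48. Their summed level at week 16 was 34.9 to 35.3 FPM in control and 242 to 344 FPM in LIDPAD libraries. At week 32 it was 26.5 to 65.3 and 345 to 895 FPM, and none of the 10 was at 0 throughout a group. Of 10 hepatocyte markers, 1, 5, 8, 5 and 3 fell in these weeks, and at week 16 their sum was 77215 to 93679 FPM in control and 39136 to 47502 FPM in LIDPAD libraries. At week 32 the hepatocyte sum, which is mostly Alb, was lower than in all controls in 4 of the 5 LIDPAD libraries and higher in LIDPAD library 1. Ttr, Serpina1c, Cps1, Apoh and Hnf4a were lower than in all controls in all 5. Of 10 stellate cell markers, 3, 8, 9, 6 and 8 rose, and of 10 Kupffer cell markers 5, 5, 6, 5 and 5 rose. The Kupffer markers that rose in each of these weeks were Cd5l, Adgre1 and the complement genes C1qa, C1qb and C1qc, joined by Vsig4 at week 16. Marco, a scavenger receptor, fell at weeks 4, 12 and 48, with -2.32 ± 0.24 (adjusted p = 0.021), -0.93 ± 0.26 (adjusted p = 0.042) and -2.98 ± 0.60 (adjusted p = 0.027), and Clec4f, Timd4 and Folr2 were not called in any week. The stellate and Kupffer sums at week 16 were 319.9 to 389 against 814 to 892 FPM and 159.7 to 293 against 389 to 576 FPM. Of 10 T and NK cell markers 5 rose at week 32 and 3 at week 48, and of 8 B and plasma cell markers 1, 2 and 3 rose at weeks 16, 32 and 48. At week 16, 5 of 7 tested cholangiocyte markers rose, and 4 of 7 did at week 32. No erythroid marker was called in any week, 1 neutrophil marker rose at weeks 16, 32 and 48 each, and of 9 endothelial markers at most 1 was called in each direction per week. Of the neutrophil markers, Ly6g was at 0 in both diets at weeks 1, 4, 12 and 16. The part of these cell types in the rise of the cell cycle genes was not tested.

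Between single libraries the sums of mitotic genes and of macrophage markers did not keep 1 order, although 3 of the 4 libraries standing apart were high in both. LIDPAD library 2 of week 1 had 56.7 FPM of macrophage markers against 22.4 FPM, with Gpnmb at 8.62 against 0.211 FPM. The exception was control library 2 of week 32. That library had 38.6 FPM, within the 26.5 to 65.3 FPM of its group, and 3.29 times the mitotic sum of the next control. Gpnmb, the macrophage marker, was at 0.406 FPM there, against 0, 0.193 and 0.0683 FPM in control libraries 1, 3 and 4. Mmp12, another of the 10 markers, was at 1.62 FPM against 0, 0 and 0.247 FPM. These 2 were thus highest in library 2, although the sum of the 10 was within its group. Control library 2 of week 4 had 103 FPM against 30.5 FPM, with Gpnmb at 11.3 FPM, and control library 3 of week 48 had 276 FPM where the next control had 44.4 FPM. Among LIDPAD libraries of week 32, library 2 had the highest macrophage sum, 895 FPM, and a mitotic sum of 50.3 FPM, while library 3 had 539 and 159.7 FPM. From week 16 to week 48 the LIDPAD libraries outside week 32 lay at 44.4 to 72.2 FPM of mitotic genes.

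**Figure D5:**
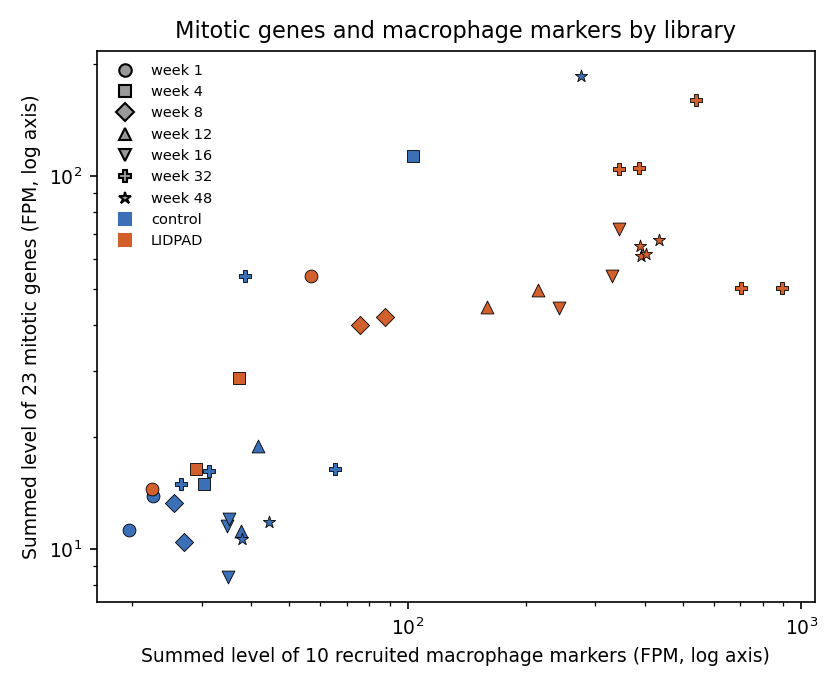
Summed level of the 23 mitotic genes against that of 10 recruited macrophage markers (FPM, log axes) in each of the 38 libraries, with the week as the symbol, control in blue and LIDPAD in orange. Control libraries of weeks 4 and 48 that stand apart are high on both axes, and the control library of week 32 that stands apart is high on the vertical axis alone.

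Several of these genes share exon sequence with a neighbour. In the GENCODE M21 annotation of GRCm38 the exons of 14 of the 38 overlap those of another gene, among them Mcm7 with Cops6 and Ap4m1, Ccna2 with Exosc9, Nusap1 with Oip5, Cdc20 with Elovl1 and Kif20a with Cdc23. Reads in the shared parts cannot be assigned to 1 gene where strand is unknown. Mki67 lies on chromosome 7 (135689784 to 135716361), Top2a on chromosome 11 (98992943 to 99024189) and Cdkn1a on chromosome 17 (29090976 to 29100727).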

How the data were processed

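Liver RNA was sequenced, and the deposited tables give FPM per gene, a depth-normalized signal that the authors made from counts and size factors. HISAT2, featureCounts, DESeq2 and GRCm38 are named in the submitters' processing notes, without versions or strand. The deposited values are whole multiples of 1 read (100% within 0.02 reads), so reads were recovered and used for the edgeR and DESeq2 alternatives. Low values are uneven, with 5.35 times as many entries at 2 reads as at 1. The 152 columns were merged in blocks of 4 into 38 libraries, because chi-square per gene within a block (1.98 to 2.27) lay below that of any other pair (2.65 or more). Symbols were found for 54409 of 54532 genes.

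Each week was fitted alone, since the tables were normalized separately, with limma 3.58.1 (R 4.3.3) and a mean-variance trend, using each library's mean FPM as log2(FPM + 0.5). Genes with a mean of both group means of at least 0.2 FPM were tested, two-sided, with Benjamini-Hochberg adjustment over all of them and a threshold of 0.05. The scripts were tested on simulated data. The other settings tried were rescaled totals, a pseudocount of 0.1 or 1, a filter of 1 FPM or none, quantile normalization, no trend, edgeR 4.0.16, DESeq2 1.42.0, a joint fit, a replicate block, the 2 sets at week 32, and leaving out each library. The fit across weeks without the 4 libraries standing apart was chosen after seeing the data. Promoters were searched with Python 3.11.15.

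The members, lists and tests were chosen with earlier results of these data known. Library values are printed for Mki67, Top2a, Cdk1, Ccnb1, Ccnb2, Mcm2, Mcm5, Ccnd1, Ccne1 and Cdkn1a where called or not overlapping, and for the 2 largest called differences per week. Of the other lists, at most 3 called genes with the smallest p per week are named, with Wee1, Myc, Gdf15 and genes moving against the majority.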

Additional observations from a re-analysis of the deposited data

Results flagged for a closer look

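In 11 of 114 combinations of 1 of the 38 genes and a group of 4 or 5 libraries, 1 library lay far from the others of its diet and week. At week 32 this was control library 2 for Mki67 (13.68 FPM), Mcm6 (5.906 FPM), Cdc20 (2.878 FPM) and Nusap1 (2.412 FPM), each the highest control, so that 4 of these flags concern the library that also stood apart in the mitotic sum. Control library 4 of that week stood apart for Rrm1 (7.721 FPM) and LIDPAD library 1 for Mcm3 (4.63 FPM). At week 48 LIDPAD library 1 stood apart for Mcm2 (8.768 FPM), Pcna (25.17 FPM), Cenpe (3.637 FPM) and Kif11 (4.35 FPM), and LIDPAD library 2 for Bub1b (1.818 FPM). Groups of 2 or 3 libraries, which include the controls of weeks 4 and 48, cannot be examined this way.

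The diet difference varied between weeks for Tk1, by the F test in limma (adjusted p = 0.0232). The mean difference of weeks 16, 32 and 48 minus that of weeks 1 and 4 was 1.299 for Mcm3, 1.598 for Bub1b and -1.021 for Tk1, on the log2 scale. Tk1 shares exon sequence with Afmid, and the part of Afmid reads in its difference was not tested.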

How the results depend on the processing

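Of the 84 calls of single genes, 83 held with a pseudocount of 1 and 79 with 0.1, 78 in DESeq2, 72 in edgeR, 57 with no filter and 27 in the joint fit, and none of these changed sign. The number of genes that rose was 4 in DESeq2 at week 1. At week 8 it was 8 with no filter, 8 with no trend and 0 in the joint fit, beside 347 of 29138, 204 of 17859 and 15 of 18652 of all genes. At week 12 it was 11 with no filter and 0 in the joint fit, beside 804 of 29272 and 109 of 18652. At week 16 it was 11 in the joint fit, beside 1660 of 18652. At week 32 it was 10 with no filter, 25 on rescaled totals, 6 on quantile-normalized values, 3 in the first set alone and 31 in the second alone, where the 1 control library has no replicate. The number that fell was 0 at week 16 on rescaled totals and 0 with no trend, and 1 at week 32 on quantile-normalized values, 1 in DESeq2 and 1 in the second set alone. The number whose diet difference varied between weeks was 0 on rescaled totals, beside 1491 of all 18728 genes tested. The cause was not tested.

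With each library left out in turn, the number that rose ran from 0 to 21 at week 1, 3 to 16 at week 8, 13 to 22 at week 12, 25 to 32 at week 16, 9 to 23 at week 32 and 0 to 29 at week 48, and was 0 throughout at week 4. The number that fell ran from 0 to 1 at weeks 1, 8, 16 and 48 and from 0 to 14 at week 4, and was 0 at weeks 12 and 32. Cdkn1a at week 1 ran from -1.49 to 1.02 and so changed sign. Its call at week 12 was lost with no filter, with no trend, in the joint fit, and without control library 1 or LIDPAD library 2.

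Same-numbered libraries of the diets did not deviate together (correlation -0.079 to 0.10), so the numbers do not pair them. With the replicate block, 12, 21, 30 and 8 genes rose at weeks 8, 12, 16 and 32 and 0 at week 48, and 1 fell at week 4. Depth limits the low genes: 183 of 1444 values rest on fewer than 10 reads.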
